A study of Homo sapiens with 10 samples.

Results

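The genes described here are 10 genes of the YAP and TEAD transcription programme, CTGF, CYR61, ANKRD1, AMOTL1, AMOTL2, LATS2, AXL, F3, TEAD1 and TEAD4, chosen by name from the 28090 genes of the array. They were read by 17 of its 41000 probes. Single-color arrays were hybridized with RNA of PC-3 cells, an androgen-independent epithelial line from a prostate cancer metastasis. The 5 groups held 2 arrays each: Ctrl, cells taken at 0 h before any treatment, and cells exposed for 24 h to DMSO, the solvent, to luteolin at 60 µM, to gefitinib at 60 µM, or to both drugs at 60 µM each (L+G). All groups are of the same line, without a genetic change. The labels call the 2 arrays of a group biological replicates and do not say how the cultures were separated, so p-values measure the spread between these arrays.

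Groups follow the sample labels. The names of the scanner files give another treatment for the 6 drug arrays: the arrays labelled luteolin are named for gefitinib, those labelled gefitinib for the combination, and those labelled L+G for luteolin. Each drug group below is therefore the set of arrays with that label, and a result that holds in all 3 sets does not depend on which naming is right. The arrays lay on 3 slides, each scanned once. Gefitinib replicate 2 lay on slide 1 with Ctrl replicate 1, while the DMSO, luteolin and L+G arrays lay on slides 2 and 3. That gefitinib array therefore shared no slide with DMSO. The 75th percentile of signal of the arrays ran from 539.8 to 1402, and 63.4% to 70.4% of probes were well above background. This percentile was 1350 and 1283 in DMSO, 1173 and 1041 in luteolin, 651 and 628 in gefitinib, and 865 and 540 in L+G. Scaling to it thus lifted the gefitinib and L+G levels against DMSO. The cause of the lower percentile was not tested. KRT8, KRT18, KRT19, EPCAM and CDH1, markers of epithelial cells, were well above background on all 10 arrays, while, among the prostate luminal markers, KLK3 and TMPRSS2 were on all 10 and KLK2 on 9. Of the leukocyte markers PTPRC was on 0 arrays, and CD3E and CD14 were on all 10, higher than DMSO in the gefitinib-labelled arrays by 1.25 and 1.81 on the log2 scale (CD14 also in L+G, by 1.64). Of the 4 fibroblast markers DCN was on 0 arrays, COL1A2 on 2, LUM on 8 and COL1A1 on 9, and against DMSO COL1A1 was lower with gefitinib (-2.22) and L+G (-1.54) while LUM was higher (1.03 and 1.74). Of the 3 endothelial markers CDH5 and VWF were on 1 array and PECAM1 on 10. The part of these markers in the results was not tested.

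YAP and its relative TAZ are coactivators without a DNA-binding domain of their own. They bind TEAD proteins on DNA and turn on genes for matrix proteins, growth receptors and cytoskeletal regulators, and the kinases of the Hippo pathway hold them in the cytoplasm by phosphorylation. Several targets, among them LATS2 and AMOTL2, restrain YAP in turn, and CTGF and CYR61 are the targets most often used as its readout.

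TEAD proteins bind target genes partly through sites close to the start, so a few of these windows are printed. The sequences are from RefSeq on GRCh38.p14, in which 7 of the 10 genes had an entry; CYR61, TEAD1 and TEAD4 had none. The TEAD core motif GGAATG and the AP-1 motif TGANTCA were searched on both strands in the 250 bases before the start. GGAATG was found in 11.9% of the 35116 promoters searched and TGANTCA in 6.57%. The CTGF window held 3 GGAATG matches, beginning 169, 104 and 95 bases before the start, and the ANKRD1 window held 2, at 220 and 128 bases. One of the entries of AMOTL2 held 1 match at 69 bases and one of those of AXL held 1 at 212 bases, both on the opposite strand. AMOTL1, LATS2 and F3 had none in their windows, and F3 held 2 AP-1 matches where ANKRD1 held 1. These 4 windows are shown 5′ to 3′ on the strand of the gene, with GGAATG or its reverse complement in capitals. They lie at chr6:131951373-131951622 (minus strand), chr10:90921088-90921337 (minus), chr3:134374448-134374697 (minus) and chr19:41226505-41226754 (plus), in that order.
CTGF: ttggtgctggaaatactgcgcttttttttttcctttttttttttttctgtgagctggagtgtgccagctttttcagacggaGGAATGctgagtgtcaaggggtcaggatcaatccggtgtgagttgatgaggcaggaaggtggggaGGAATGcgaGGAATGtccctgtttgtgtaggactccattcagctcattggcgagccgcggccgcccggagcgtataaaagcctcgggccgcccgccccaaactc
ANKRD1: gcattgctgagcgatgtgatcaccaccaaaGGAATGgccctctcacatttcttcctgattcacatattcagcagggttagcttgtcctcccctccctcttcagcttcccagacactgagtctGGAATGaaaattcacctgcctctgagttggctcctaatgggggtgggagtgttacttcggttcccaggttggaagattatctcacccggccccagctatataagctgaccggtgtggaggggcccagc
AMOTL2: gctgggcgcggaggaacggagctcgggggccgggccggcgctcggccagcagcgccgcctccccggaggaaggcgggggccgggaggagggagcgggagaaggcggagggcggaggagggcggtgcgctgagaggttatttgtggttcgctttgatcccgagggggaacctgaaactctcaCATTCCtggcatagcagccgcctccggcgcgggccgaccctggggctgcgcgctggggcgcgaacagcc
AXL: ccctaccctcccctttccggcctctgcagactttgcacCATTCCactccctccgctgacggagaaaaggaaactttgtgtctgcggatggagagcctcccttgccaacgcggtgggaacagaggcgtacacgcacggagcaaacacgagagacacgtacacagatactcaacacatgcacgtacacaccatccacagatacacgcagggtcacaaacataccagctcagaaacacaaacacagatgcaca

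All levels below are log2 signals relative to the 75th percentile of the same array, so a level of 0 equals that percentile, and levels of different probes are not comparable. Changes are log2 differences of group means from a limma fit of all 10 arrays, with Benjamini-Hochberg adjusted p-values over all 28774 probes kept. A gene counts as called, raised or lowered, where the adjusted p is below 0.05 and its 2 group means lie 2-fold or more apart. Each gene is represented by its brightest probe.

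In the arrays labelled luteolin, 4 of the 9 genes tested fell against DMSO and 0 rose. Those that fell were the secreted matrix proteins CTGF and CYR61, the receptor AXL and the DNA-binding partner TEAD4. Of all 19717 genes tested, 13.4% were called in this comparison, 7.22% raised and 6.17% lowered. The median change of the 9 genes was -1.06, the value of ANKRD1, beside 0.08 over all genes. ANKRD1 was well above background on 1 of 2 DMSO arrays and 0 of 2 luteolin arrays. With normexp background correction its change was -0.03. In the arrays labelled gefitinib 1 gene rose (ANKRD1) and 1 fell (CTGF), where 29.9% of all genes were called (15.6% raised, 14.3% lowered). With quantile normalization 0 rose and 3 fell there (CTGF, CYR61 and AMOTL2), where 5093 of all genes were called. In those labelled L+G 1 rose (LATS2) and 1 fell (CTGF), where 19.8% of all genes were called (12.1% raised, 7.69% lowered). Both of these counts, 2 of 9, lie near those backgrounds. The medians there were -0.26 and -0.15, beside 0.22 and 0.16 over all genes. Only CTGF was called lower in all 3 drug groups.

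**Figure D1:**
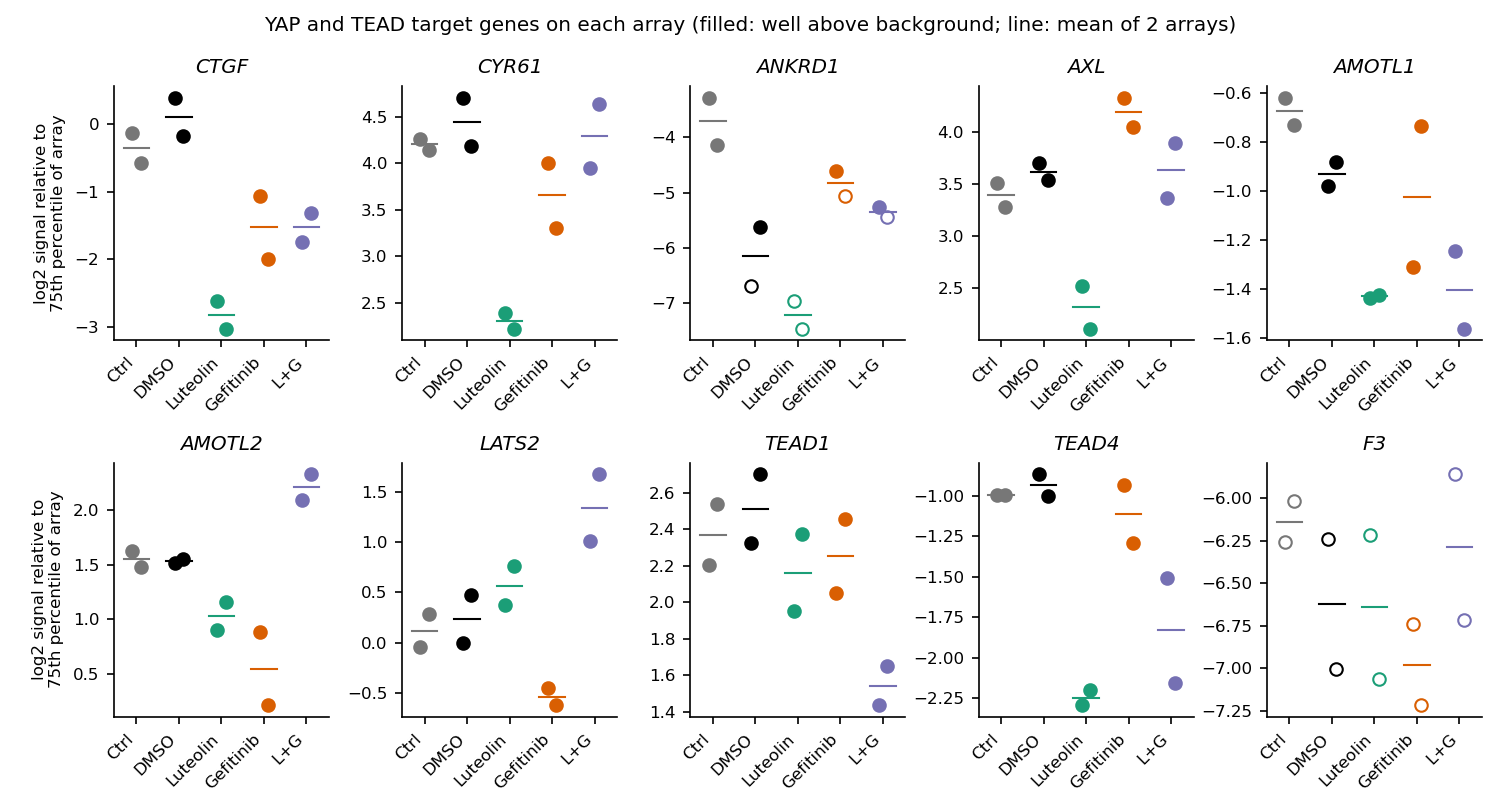
Level of the 10 genes on each array (log2 scale, as a ratio to the signal at the 75th percentile; one point an array, line at the mean of 2 arrays); open points were not well above background. CTGF, CYR61, AXL and TEAD4 are lowest in the luteolin-labelled arrays, AMOTL2 and LATS2 are highest in L+G, and all 10 points of F3 are open.

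CTGF, now CCN2, encodes a secreted matrix protein that promotes adhesion and fibrosis. Its probe lies on chromosome 6 at 132311823 to 132311882 (hg18, as the scanner files give all probe positions). The levels were -0.13 and -0.57 in Ctrl, 0.39 and -0.18 in DMSO, -2.62 and -3.03 in the arrays labelled luteolin, -1.06 and -1.99 in gefitinib, and -1.74 and -1.31 in L+G. All 6 drug arrays were below all 4 control arrays. Against DMSO, CTGF fell by 2.93 ± 0.35 (SE, n = 2) with luteolin, a 7.60-fold decrease with a limma adjusted p of 0.00126. It fell by 1.63 ± 0.35 with gefitinib (3.103-fold, limma adjusted p = 0.00584) and by 1.63 with L+G (limma adjusted p = 0.00911). On the slides that held both arrays, the differences from DMSO were -3.01 and -2.84 for luteolin, -1.45 for gefitinib and -2.13 and -1.13 for L+G. The call in L+G was lost without DMSO replicate 1, at a limma adjusted p of 0.0645. The 3 promoter matches printed above belong to this gene.

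CYR61, now CCN1, encodes a secreted relative of CTGF that binds integrins. Its brightest probe (chromosome 1, 85821541 to 85821600) gave 4.26 and 4.15 in Ctrl, 4.71 and 4.19 in DMSO, 2.39 and 2.22 in the arrays labelled luteolin, 4.005 and 3.31 in gefitinib, and 3.95 and 4.64 in L+G. On this scale the luteolin-labelled arrays were low, and the L+G arrays overlapped DMSO. Before scaling, the CYR61 signals were 35280 and 23352 in DMSO and 6140 and 4867 in luteolin. Those of gefitinib (10445 and 6217) and L+G (13318 and 13456) were below DMSO too. CYR61 fell by 2.14 ± 0.31 (SE, n = 2) against DMSO with luteolin, a 4.41-fold decrease (limma adjusted p = 0.00238), and the other 2 probes gave -2.14 and -2.19. On slides 2 and 3 the difference was -2.32 and -1.96. With gefitinib the change was -0.79 (95% interval -1.50 to -0.08, limma adjusted p = 0.0581). This value became a call with quantile normalization (-1.36, adjusted p = 0.00432) and without gefitinib replicate 1 (-1.14, adjusted p = 0.031). With L+G it was -0.15 (95% interval -0.86 to 0.55, limma adjusted p = 0.708).

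AXL encodes a receptor tyrosine kinase of invasive cells. Its levels were 3.50 and 3.28 in Ctrl, 3.70 and 3.54 in DMSO, 2.52 and 2.11 in the arrays labelled luteolin, 4.33 and 4.05 in gefitinib, and 3.36 and 3.89 in L+G. On this scale the luteolin-labelled arrays were below all others, and the gefitinib-labelled arrays were above all others. Before scaling, the AXL signals of gefitinib (13082 and 10382) were below those of DMSO (17507 and 14920). Against DMSO, AXL fell by 1.30 ± 0.23 (SE, n = 2) with luteolin, a 2.46-fold decrease (limma adjusted p = 0.00591). Within slides 2 and 3 the differences were -1.17 and -1.43. Without DMSO replicate 1 or without luteolin replicate 2 the adjusted p was 0.0505 and 0.053. With gefitinib the change was 0.57 (95% interval 0.03 to 1.11, limma adjusted p = 0.0688) and with L+G 0.01 (95% interval -0.53 to 0.55, limma adjusted p = 0.974). With quantile normalization the gefitinib value was -0.03 (adjusted p = 0.916) and the L+G value -0.25 (adjusted p = 0.335).

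ANKRD1 encodes an ankyrin repeat protein of muscle and of stretched or injured cells. It was close to background on most arrays: the levels were -3.28 and -4.14 in Ctrl, -6.68 and -5.62 in DMSO, -6.97 and -7.46 in the arrays labelled luteolin, -4.60 and -5.06 in gefitinib, and -5.25 and -5.45 in L+G. Both Ctrl arrays were well above background, 1 of 2 was in each of DMSO, gefitinib and L+G, and 0 were in luteolin. The Ctrl arrays were the highest, and ANKRD1 was kept for testing only through Ctrl, so that its differences from Ctrl are favored by this filter and are given as a description. ANKRD1 was at least 3.55-fold lower with luteolin than in Ctrl (limma adjusted p = 0.00079), with measured means of -7.21 and -3.71. No lower limit is given for luteolin against gefitinib or L+G, since 1 of 2 arrays in each of these was not well above background. The change from Ctrl to DMSO was -2.44 and did not pass the adjusted threshold (limma adjusted p = 0.159). The call with gefitinib against DMSO (1.32 ± 0.40, limma adjusted p = 0.0232) rested on arrays near background. It was lost with quantile normalization (adjusted p = 0.065), with slide as a block (adjusted p = 0.0904), without DMSO replicate 1 (0.154) and without gefitinib replicate 1 (0.114). The luteolin value against DMSO was -1.06 (limma adjusted p = 0.0864). The 2 TEAD matches and the AP-1 match in its promoter window were given above.

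F3 encodes tissue factor, the starter of the clotting cascade. Its only probe, on chromosome 1 at 94768476 to 94768535, reached the well-above-background mark on 0 of the 10 arrays, with levels from -7.22 to -5.86, and F3 was not tested.

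**Figure D2:**
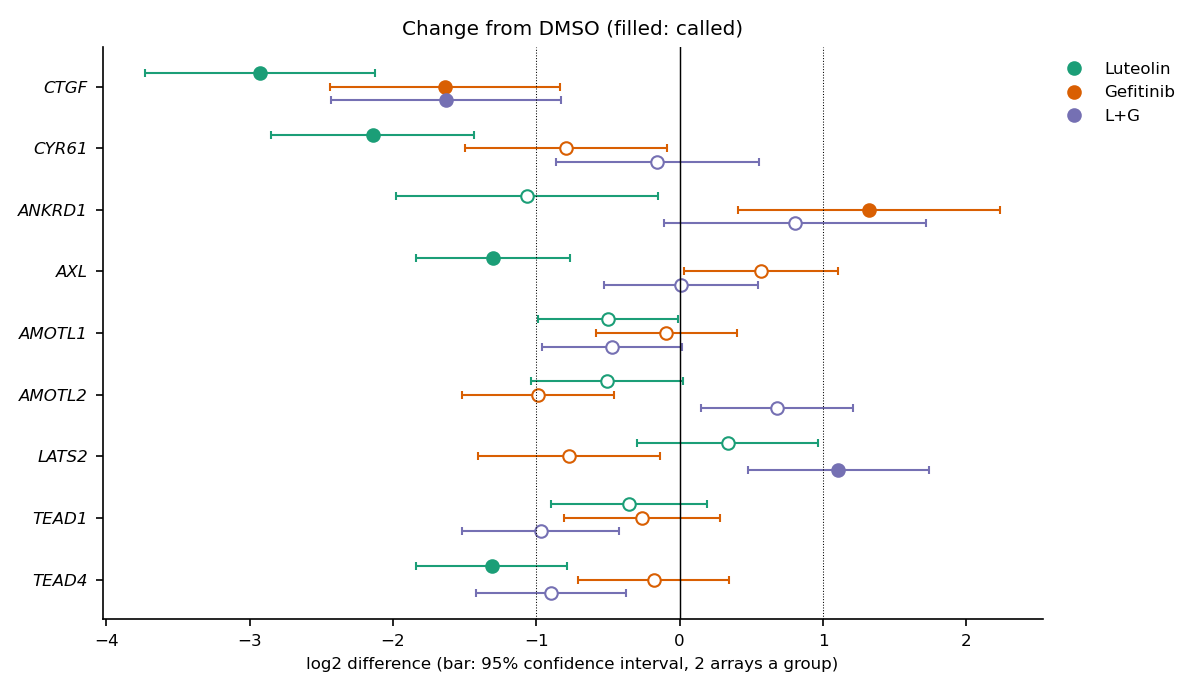
Change of the 9 tested genes from DMSO (log2 difference, bars are 95% confidence intervals from limma, 2 arrays a group, filled points are called). On the scaled levels, CTGF is the only gene with filled points to the left of -1 in all 3 drug groups, and CYR61, AXL and TEAD4 are filled in luteolin alone.

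AMOTL2 and LATS2 encode inhibitors of YAP, an angiomotin-like scaffold and a Hippo kinase. The AMOTL2 levels were 1.63 and 1.48 in Ctrl, 1.51 and 1.55 in DMSO, 0.90 and 1.16 in the arrays labelled luteolin, 0.88 and 0.21 in gefitinib, and 2.09 and 2.33 in L+G. On this scale luteolin and gefitinib arrays were below both control groups and L+G arrays above them. Before scaling, the AMOTL2 signals of L+G (3684 and 2716) were below those of DMSO (3855 and 3766). Against DMSO the change was -0.50 (95% interval -1.04 to 0.03, limma adjusted p = 0.15) with luteolin, -0.99 with gefitinib (adjusted p = 0.00848, just short of 2-fold) and 0.68 with L+G (adjusted p = 0.0469, under 2-fold). The gefitinib change passed 2-fold with quantile normalization (-1.08), without DMSO replicate 1 (-1.01) and without gefitinib replicate 1 (-1.32).

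LATS2 gave -0.05 and 0.28 in Ctrl, -0.01 and 0.47 in DMSO, 0.38 and 0.76 in the arrays labelled luteolin, -0.45 and -0.62 in gefitinib, and 1.01 and 1.68 in L+G. On this scale the gefitinib arrays were the lowest and the L+G arrays the highest. Before scaling, the LATS2 signals of L+G (1736 and 1726) lay between those of DMSO (1342 and 1783). LATS2 rose by 1.11 ± 0.28 (SE, n = 2) against DMSO with L+G, a 2.16-fold increase (limma adjusted p = 0.0156), and by 1.01 and 1.202 within slides 2 and 3. The call was lost without DMSO replicate 1 (adjusted p = 0.105), without L+G replicate 2 (adjusted p = 0.0815) and with the median over probes (0.98, under 2-fold). The second LATS2 probe gave 0.86 there (adjusted p = 0.0521) and was called lower with gefitinib (-1.01, limma adjusted p = 0.023), where the brightest probe gave -0.77 (limma adjusted p = 0.0435).

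AMOTL1 encodes another angiomotin-like scaffold and was read by 4 probes. All had lower means than DMSO with each drug label, by different sizes. The brightest (chromosome 11, 94243876 to 94243935) gave -0.98 and -0.88 in DMSO, -1.44 and -1.42 in the arrays labelled luteolin, -1.31 and -0.74 in gefitinib, and -1.24 and -1.56 in L+G, and its changes from -0.50 to -0.09 were not called. Another 2 probes of the same transcript were not called either. Of these, the probe at 94243530 to 94243589 changed by -0.60 with gefitinib and -0.66 with L+G (limma adjusted p = 0.0355 and 0.0317, under 2-fold). The last probe, on chromosome 11 at 94250925 to 94250984, was annotated to another transcript and was called lower with each drug label. It was well above background in Ctrl and DMSO and on 0 of the 6 drug arrays. It was thus kept only through the groups where it was high, which favors a call in this direction, and the decrease was at least 1.47-fold with luteolin, 1.05-fold with gefitinib and 1.36-fold with L+G (limma adjusted p = 0.00739, 0.000839 and 0.000932).

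TEAD4 and TEAD1 encode DNA-binding partners of YAP. TEAD4 gave -0.999 and -0.997 in Ctrl, -0.866 and -1.0002 in DMSO, -2.29 and -2.20 in the arrays labelled luteolin, -0.94 and -1.29 in gefitinib, and -1.51 and -2.15 in L+G. On this scale luteolin arrays were lowest and L+G arrays lay between. Before scaling, the TEAD4 signals were 740 and 641 in DMSO and 240 and 227 in luteolin. Those of gefitinib (340 and 256) and L+G (304 and 121) were below DMSO too. TEAD4 fell by 1.31 ± 0.23 (SE, n = 2) with luteolin, a 2.48-fold decrease against DMSO (limma adjusted p = 0.00528). Within slides 2 and 3 the differences were -1.42 and -1.199. With L+G the change was -0.90 (limma adjusted p = 0.0171, under 2-fold) and without L+G replicate 1 it was -1.22 (adjusted p = 0.00367). TEAD1 was 2.32 and 2.70 in DMSO, 1.95 and 2.37 in the arrays labelled luteolin, 2.05 and 2.45 in gefitinib, and 1.44 and 1.65 in L+G, and its L+G arrays were below all others. That change was -0.97 (limma adjusted p = 0.0148, under 2-fold), and -0.72 on the second probe. It passed 2-fold with normexp (-1.02), with quantile normalization (-1.09), without DMSO replicate 1 (-1.16) and without L+G replicate 2 (-1.08).

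Against the untreated cells of 0 h, 5 genes fell with luteolin (CTGF, CYR61, ANKRD1, AXL and TEAD4) and 0 rose, where 16.1% of all genes were called (8.26% raised, 7.85% lowered). With gefitinib 3 fell (CTGF, ANKRD1 and AMOTL2), where 29% of all genes were called (14.5% lowered and 14.5% raised). With L+G 2 fell (CTGF and ANKRD1) and 1 rose (LATS2), where 19.8% of all genes were called (11.5% raised, 8.32% lowered). Without ANKRD1, which was kept only because it was high in Ctrl, 4, 2 and 1 of 8 genes fell in the 3 drug groups. DMSO alone gave 0 limma calls among the 9 genes (1 gene, ANKRD1, had an unadjusted p below 0.05), where 0.0355% of all genes were called (0.0254% raised, 0.0101% lowered). These comparisons share the Ctrl arrays. CTGF changed by -2.47, -1.18 and -1.18 in the 3 drug groups against Ctrl (limma adjusted p = 0.00185, 0.0219 and 0.0293). Without Ctrl replicate 1 the last 2 adjusted p-values were 0.117 and 0.143. ANKRD1 against Ctrl was -1.12 with gefitinib (limma adjusted p = 0.0426), and this sign flipped to 0.12 with normexp. With slide as a block its adjusted p was 0.0804 with gefitinib and 0.0574 with L+G.

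Differences between the drug groups were tested directly. The arrays labelled luteolin were lower than those labelled gefitinib for 5 genes (CTGF, CYR61, ANKRD1, AXL and TEAD4) and higher for 1 (LATS2), where 36.6% of all genes were called (18.1% raised, 18.5% lowered). Before scaling, the luteolin and gefitinib signals overlapped for CTGF (191 and 128, 312 and 158). Luteolin stayed lower for CYR61 (6140 and 4867 against 10445 and 6217) and TEAD4 (240 and 227 against 340 and 256). It was also lower for AXL (6741 and 4502 against 13082 and 10382) and higher for LATS2 (1522 and 1762 against 475 and 408). L+G was higher than luteolin for 5 genes (CTGF, CYR61, ANKRD1, AXL and AMOTL2) and lower for 0, where 21% of all genes were called (11.3% raised, 9.76% lowered). Leaving out ANKRD1, which was close to background in all 3 drug groups, 4 of 8 genes were lower with luteolin than with gefitinib. Likewise 4 of 8 were higher in L+G than in luteolin. L+G was higher than gefitinib for 2 genes (AMOTL2 and LATS2), where 27% of all genes were called (17.2% raised, 9.76% lowered). AXL differed by -1.87 ± 0.23 between luteolin and gefitinib (3.66-fold, limma adjusted p = 0.000385), and by 1.31 between L+G and luteolin (limma adjusted p = 0.00387). CYR61 was 1.99 ± 0.31 higher in L+G than in luteolin (3.96-fold, limma adjusted p = 0.00227). CTGF was 1.29 lower with luteolin than with gefitinib (limma adjusted p = 0.0129), a call lost without luteolin replicate 2 (adjusted p = 0.0802) or gefitinib replicate 1 (0.0791). In the same comparison the LATS2 call was lost with slide as a block (0.87), with normexp (0.96) and without luteolin replicate 2 (adjusted p = 0.0637), the TEAD4 call with normexp (-0.95) and without gefitinib replicate 1 (-0.95), and the CYR61 call with quantile normalization (-0.90). For L+G minus luteolin, the CTGF call was lost without luteolin replicate 2 (adjusted p = 0.112) or L+G replicate 2 (0.111), and the ANKRD1 call with normexp (0.78) and without luteolin replicate 2 (adjusted p = 0.0563). L+G and gefitinib differed for CTGF by 0.00, with a 95% interval of -0.80 to 0.80. For LATS2 that difference was 1.88 ± 0.28 (3.68-fold, limma adjusted p = 0.001) and for AMOTL2 1.66 ± 0.23 (3.17-fold, limma adjusted p = 0.000776).

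**Figure D3:**
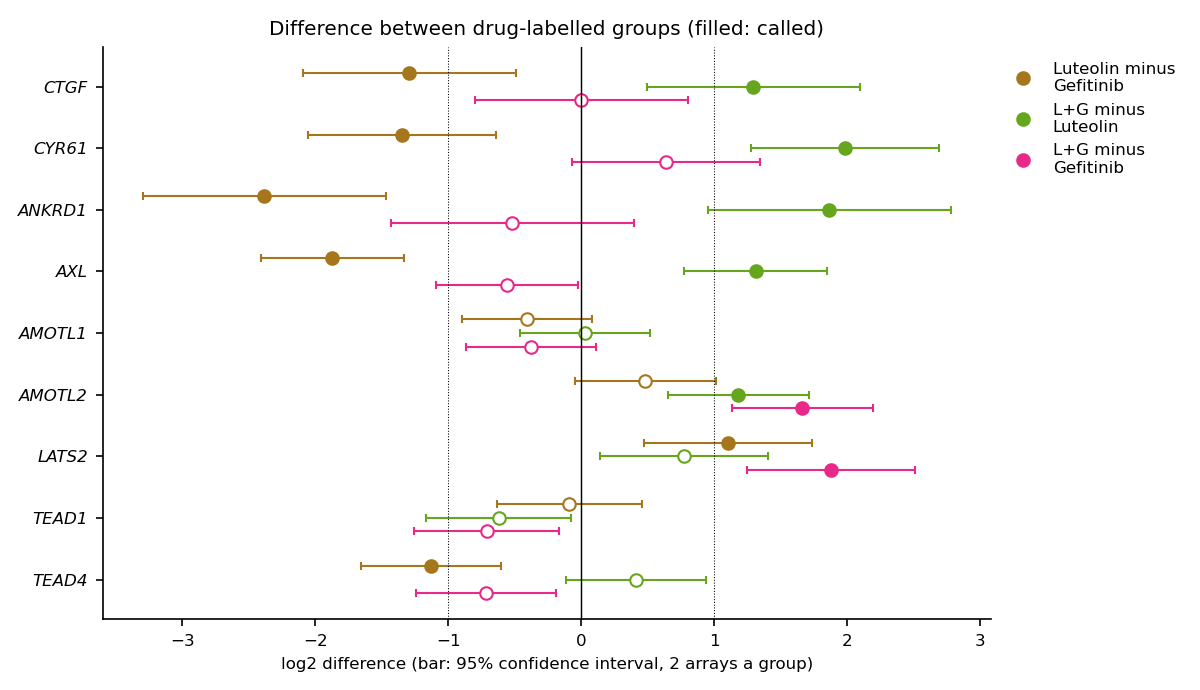
Difference between the drug-labelled groups for the 9 tested genes (log2 difference, bars are 95% confidence intervals from limma, 2 arrays a group, filled points are called). Luteolin minus gefitinib is negative and filled for CTGF, CYR61, ANKRD1, AXL and TEAD4, and AMOTL2 and LATS2 are the filled points of L+G minus gefitinib.

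Neither coactivator was called against DMSO. YAP1 gave 0.26, 0.34 and -0.35 against DMSO with luteolin, gefitinib and L+G, and WWTR1, which encodes TAZ, gave -0.23, -0.42 and -0.71, the last with a limma adjusted p of 0.0342 and under 2-fold. Of the 15 genes of the Hippo pathway list, 3 were called with luteolin: LATS1, a Hippo kinase, rose (1.53, limma adjusted p = 0.0499), while NF2 (-1.79) and WWC1 (-1.02), upstream activators of the pathway, fell, beside 13.4% of all genes called. With gefitinib the kinase adaptor SAV1 (-1.38) and the scaffold AMOT (-1.67) were lower, and AMOT was lower with L+G (-1.77), so 2 and 1 of 15 were called, beside 29.9% and 19.8% of all genes. AMOT was well above background on 0 arrays of either group and was kept only through Ctrl and DMSO, where it was high, so these decreases were at least 1.18-fold and 1.52-fold. The median of the list was 0.04, 0.03 and -0.23 in the 3 groups, beside 0.08, 0.22 and 0.16 over all genes.

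Of 14 other tested YAP and TAZ targets (FOXF2 was not tested), 3 fell with luteolin: FJX1 (-2.01), MYOF, a membrane repair protein (-1.21), and DOCK5, an exchange factor for Rac (-1.13), beside 6.17% of all genes lowered. With gefitinib FJX1 (-1.75) and ARHGEF17, a guanine nucleotide exchange factor (-1.004), fell, while IGFBP3, a binding protein of insulin-like growth factors (2.10), and GADD45A, a stress and DNA damage gene (1.28), rose. These 2 and 2 of 14 lie near the 14.3% of all genes lowered and 15.6% raised. With L+G ARHGEF17 (-1.25) and RBMS3 (-1.68) fell, beside 7.69% of all genes lowered. The medians of these targets were -0.70, 0.63 and 0.02, beside 0.08, 0.22 and 0.16 over all genes. SRF and MRTF drive several cytoskeletal genes that overlap with YAP targets. Of 9 genes of that list 1 rose with luteolin (ACTA2, 1.04), 4 rose with gefitinib (FHL2, MYL9, TAGLN and TGFB1I1, from 1.23 to 1.48) and SRF itself fell (-1.65), and 1 rose with L+G (TAGLN, 1.09). The shares of all genes raised were 7.22%, 15.6% and 12.1%, and 14.3% were lowered with gefitinib. The rises with gefitinib and L+G in these lists are on the scaled levels, which scaling lifted against DMSO.

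**Figure D4:**
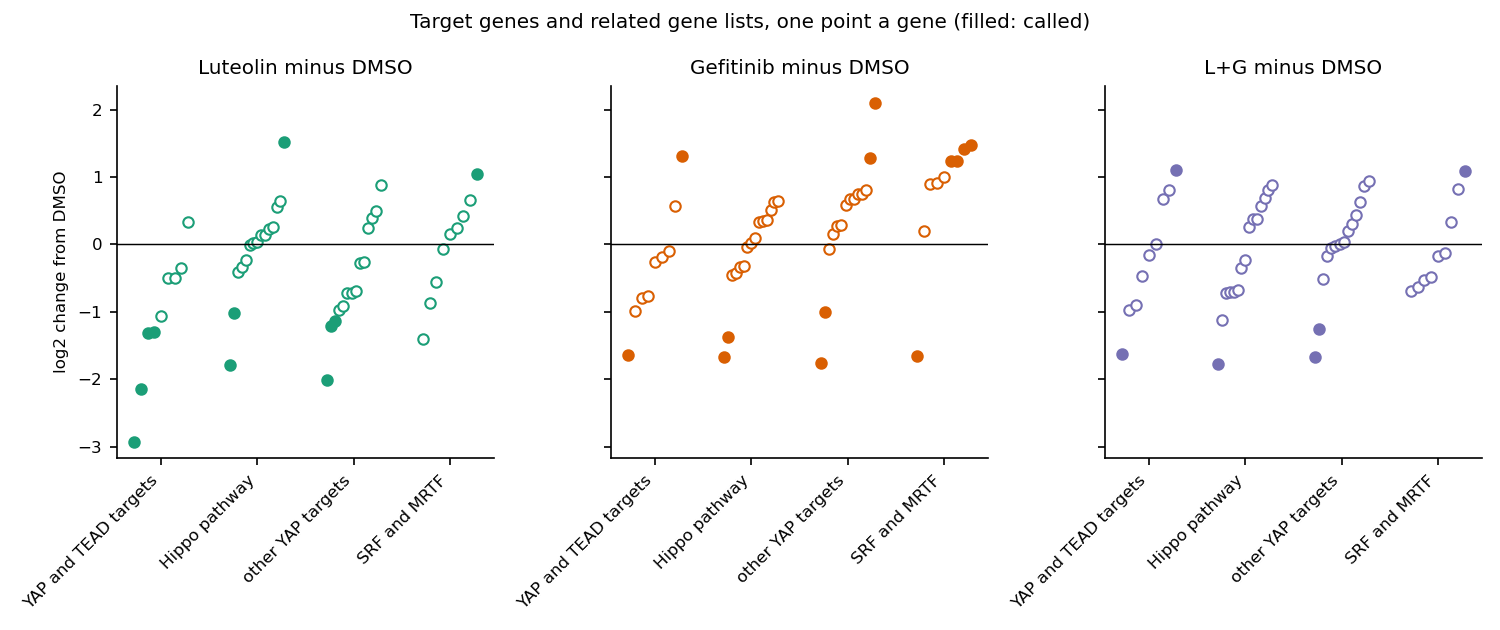
Change from DMSO of each gene of the YAP and TEAD targets and of 3 related lists (log2 change, one point a gene ordered within its list, filled points are called). In the luteolin-labelled arrays the lowest points are CTGF at -2.93 and CYR61 at -2.14. In gefitinib 4 filled points of the SRF and MRTF list lie above 1 on the scaled levels, which scaling lifted against DMSO.

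Over the 10 arrays, which share groups and slides, CTGF and CYR61 correlated at r = 0.87, CTGF and TEAD4 at 0.82, and AMOTL2 and LATS2 at 0.79. Among 16210 genes well above background on all arrays, those whose levels were most like CTGF included LRP5 (r = 0.95) and KIF23 (0.94), and those most like CYR61 were TRA2B (0.96), H4C1 (0.95) and LOC442210 (0.95). These correlations describe the arrays and carry no test.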

How the data were processed

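The deposited intensities are Agilent processed signals, corrected for background within each array and left without scaling between arrays, per the file headers (Feature Extraction 10.7.3.1), as are the flags that mark a spot as well above background. Control and outlier spots were dropped, the log2 signals of a probe were averaged, and the log2 of the array's 75th percentile was subtracted (R 4.3.3, the data.table package, version 1.17.8). A probe was kept where both arrays of some group had it well above background, which left 28774 of 41000. The 5 groups, taken from the labels, were fitted with limma 3.58.1 (5 residual and 3.36 prior degrees of freedom), and the brightest kept probe stood for its gene. Where a probe was well above background on no array of a group and on both of the other, the fold is a lower limit. On each array of the former group the probe was given its own signal or, if higher, the dimmest signal that passed there. The series' value table repeated the scanner signals, and the number of unused per-sample columns was 0.

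The genes and lists were chosen with earlier results of these data known. All 10 genes were named whatever their values, and from the related lists those called against DMSO with at least 1 drug label. The scripts were tested on simulated arrays. The alternatives were normexp (offset 50), quantile normalization, other filters on dim probes, the value table, replicate or slide as a block, fits of only the groups compared, the file names' treatments, no minimum fold, the median over probes, the methods' 1-sample test and the omission of each array. Deviations of same-numbered arrays correlated at -0.10 to 0.29, so the numbers were not taken to pair arrays. With 2 arrays a group, precision is limited. Sequences are from RefSeq (GRCh38.p14), and probe positions are on hg18. A few marker genes and 1 gene with levels like those of CTGF are not reported here.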

Additional observations from a re-analysis of the deposited data

How the results depend on the processing

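Of 118 counts of called genes under alternatives other than leaving out an array, 95 stayed within 1.5 times the reported count. These include the counts from the value table, which repeated the scanner signals and so could not differ. The treatments of the file names exchanged the drug groups. Luteolin against DMSO then had 2 called genes and gefitinib 4, luteolin against Ctrl 3 and gefitinib 5, L+G against luteolin 2 and L+G against gefitinib 6. These values turned direction under the file names: against DMSO, AXL was 0.011 with luteolin and -1.30 with gefitinib, ANKRD1 was -1.06 with gefitinib, and LATS2 was -0.77 with L+G. For luteolin minus gefitinib, CTGF was 1.29, CYR61 1.99, ANKRD1 1.86, AXL 1.31 and TEAD4 0.41. For L+G minus luteolin, CTGF was -0.0025, CYR61 -0.64, AMOTL2 -1.66 and LATS2 -1.88. For L+G minus gefitinib, ANKRD1 was 2.38, AMOTL2 -0.48, LATS2 -1.11, AXL 1.87 and TEAD4 1.13. CTGF was lower than DMSO in all 3 groups under either naming.

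With normexp the counts against Ctrl were 3 with luteolin, 1 with gefitinib and 1 with L+G. Of all genes it called 2057, 3603 and 2625 there, beside 3176, 5716 and 3912 in the reported fit. With slide as a block, gefitinib had 1 called gene against DMSO and 1 against Ctrl, where 5977 and 6165 of all genes were called. With probes dim on any array left out it had 1 against DMSO, where 4357 of all genes were called. Without a minimum fold there were 4 with gefitinib and 5 with L+G against DMSO, 6 with L+G against Ctrl and 4 for L+G minus gefitinib. The share of all genes called without this minimum was not computed. The median over probes gave 1 with L+G against DMSO, where 3802 of all genes were called. The methods' t-test against Ctrl, unadjusted, called 3 genes with luteolin, 0 with gefitinib and 1 with L+G, where 1449, 2293 and 965 of all genes were called. After Benjamini-Hochberg adjustment it called 0 of all genes in each comparison, so its 0, 0 and 0 say nothing particular to these genes. With 2 arrays a group this 1-sample test has 1 degree of freedom. The cause of the other changed counts was not tested. Leaving out 1 array, which assumes that the lone array varies like the other groups, gave 3 to 4 called genes for luteolin and 1 to 3 for L+G against DMSO, 0 to 3 for gefitinib and 0 to 3 for L+G against Ctrl, and 3 to 6 for L+G minus luteolin. The counts of 0 for gefitinib and L+G came without Ctrl replicate 1, without gefitinib replicate 2 and without L+G replicate 2. The replicate block gave 4 called genes with luteolin, 2 with gefitinib and 2 with L+G against DMSO, as without the pairing. Of all genes 2689, 5916 and 3957 were called there. Against Ctrl it gave 2 in place of 3 with gefitinib, where 5739 of all genes were called. Apart from the file names, 984 of 1020 values of single genes kept their side of the threshold, 22 lost a call and 14 gained one. The sign changed in 19, 0 of them called under either setting, all of reported size 0.57 or less. These values leave out the comparisons with Ctrl and include those from the value table, which could not differ. Median changes over all genes against DMSO were 0.11, 0.37 and 0.29 with normexp and 0.04, 0.05 and 0.00 with quantile normalization. Signal near background limits ANKRD1 and F3.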
